A study of Mus musculus with 6 samples.

Results

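The adipokines, the hormones and secreted proteins of fat, were examined as 10 genes taken by name from a table of 36144 gene rows. They are Adipoq (adiponectin), Lep (leptin), Retn (resistin), Cfd (complement factor D, or adipsin), Rbp4 (retinol-binding protein 4), Nrg4 (neuregulin 4), Angptl4 and Angptl8 (angiopoietin-like proteins), Agt (angiotensinogen) and Rarres2 (chemerin). Each of the 10 symbols stood on 1 row, and all 10 passed the filter on low values. Adiponectin and leptin are made almost only by adipocytes and report on the fat store in opposite ways: leptin rises as adipocytes fill and tells the brain of stored energy, whereas adiponectin is high in lean animals and favours insulin sensitivity. Resistin is an adipocyte hormone in the mouse, and factor D is the protease that starts the alternative complement pathway. Angptl4 and Angptl8 inhibit lipoprotein lipase, the enzyme that lets tissues take up fat from blood, in the fasted and the fed state.

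The tissue was mouse subcutaneous white adipose tissue, the fat under the skin, sequenced as poly-A RNA in 6 libraries. The 3 libraries titled Tumor carry the genotype label MSRA full-body KO, and the 3 titled WT carry MSRA WT, where MSRA is methionine sulfoxide reductase A, an enzyme that repairs oxidised methionine. All 6 have the treatment label of an orthotopic transplant. According to the design text, cells of a pancreatic ductal adenocarcinoma were placed into the pancreas of hosts of either genotype and the fat was collected after 4 to 5 weeks, but the series title sets tumour-bearing mice against mice without a tumour. Transplant and genotype therefore cannot be told apart in this contrast, and the groups are named here by their titles. The titles call the replicates biological, while for age, sex, strain and the tumour line the labels give nothing. The library identifiers of Tumor and WT come from separate number ranges, so that any batch along that line and the contrast itself cannot be told apart.

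Values are TPM, transcript shares which correct for transcript length and sum to 1000000 in each library, so the number of reads per library is unknown. Between 13075 and 14251 genes reached 1 TPM in a library. Msra, the gene named in the genotype label, stood at 52.9, 40.0 and 26.9 TPM in the Tumor libraries and at 51.1, 59.1 and 56.3 TPM in the WT libraries, so its RNA was present where the label says knockout (log2 difference -0.51, SE 0.26, limma adjusted p = 0.737). Of 14144 genes tested with limma, 0 passed an adjusted p of 0.05 (0.0%), and 771 had an unadjusted p below 0.05 (5.45%). Markers of other cells differed widely between libraries. The summed TPM of 8 B and plasma cell markers was 10.9, 1747 and 2605 in the Tumor libraries and 978, 919 and 7.26 in the WT libraries. For 8 skeletal muscle markers the sums were 2174, 671 and 2676 TPM in the Tumor libraries and 15.1, 3278 and 11.3 TPM in the WT libraries. The sum of 6 macrophage markers was higher in the Tumor libraries without overlap, at 3359, 1963 and 2702 TPM in the Tumor libraries and 1751, 1503 and 1290.0 TPM in the WT libraries, and its part in the members' differences was not tested. The tissue label matched its markers, since 13 adipocyte markers such as Plin1 and Fabp4 were detected in every library, with sums of 20211, 15064 and 5670 TPM in the Tumor libraries and 14325, 17633 and 25988 TPM in the WT libraries. Tumor replicate 3 thus held the least adipocyte RNA and WT replicate 3 the most. In tissue RNA, fewer adipocytes and less RNA per adipocyte cannot be told apart.

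The promoters of the members on which the results turn are shown first, as the 250 bases before the transcription start in RefSeq on GRCm38.p6. A RefSeq promoter was matched for 8 of the 10 members, the others being Angptl4 and Rarres2. Angptl8 is shown because its groups did not overlap, Lep because it varied most, apart from Angptl8, between libraries, and Adipoq because the other members are set against it. Capitals mark every match, on either strand, to TATAAA (the TATA box), CCAAT (the CCAAT box), GGGCGG (the core of an Sp1 element), CACGTG (an E-box), AGGTCA (a nuclear receptor half-site) or TTGCNNAA (a spacing typical of C/EBP factors), and no matches overlapped.
Angptl8 (chr9:21835260-21835509, + strand): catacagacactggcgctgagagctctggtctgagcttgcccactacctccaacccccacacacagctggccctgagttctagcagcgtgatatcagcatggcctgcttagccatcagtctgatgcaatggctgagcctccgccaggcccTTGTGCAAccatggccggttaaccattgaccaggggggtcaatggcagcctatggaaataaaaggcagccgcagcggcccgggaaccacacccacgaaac
Lep (chr6:29059971-29060220, + strand): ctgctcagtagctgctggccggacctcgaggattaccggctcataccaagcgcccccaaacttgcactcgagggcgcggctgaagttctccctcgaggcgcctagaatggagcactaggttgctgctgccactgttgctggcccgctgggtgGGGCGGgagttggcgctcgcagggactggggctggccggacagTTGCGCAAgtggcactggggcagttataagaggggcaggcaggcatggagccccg
Adipoq (chr16:23146286-23146535, + strand): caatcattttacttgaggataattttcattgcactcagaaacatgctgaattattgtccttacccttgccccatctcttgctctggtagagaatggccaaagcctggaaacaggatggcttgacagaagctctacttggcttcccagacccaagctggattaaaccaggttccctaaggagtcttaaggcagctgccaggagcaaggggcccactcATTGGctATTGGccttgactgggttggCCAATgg
The Angptl8 window lies in the gene span of Dock6, which runs on the opposite strand, outside its annotated exons. Angptl8 and Lep each held 1 match to TTGCNNAA, starting 100 and 55 bases before the start, and 9.56% of 32851 RefSeq promoter windows of this length held such a match. Lep also held GGGCGG, which 32.7% of windows held. Adipoq held 3 matches to CCAAT or its reverse, within 34 bases of the start, and 33.8% of windows held at least 1. TATAAA was held by 12.4% of windows, AGGTCA by 14.0% and CACGTG by 6.02%, and none of these was in the windows shown. A match is a run of letters and not evidence of binding.

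Together the 10 members made up 2.89%, 2.15% and 0.820% of all TPM in the Tumor libraries and 1.88%, 2.09% and 3.38% in the WT libraries. Cfd alone supplied 76.0% to 81.2% of that sum, and ranked between 2 and 9 among all genes in each library. By mean level in TPM the order in the Tumor libraries was Cfd, Adipoq, Retn, Rarres2, Rbp4, Angptl4, Lep, Nrg4, Agt and Angptl8. The WT order differed only in its last places, where Angptl8 stood above Agt. Cfd lay above Adipoq with no overlap in either group. In the Tumor libraries every other pair of neighbours overlapped in range, although 8 of the 9 neighbours kept this order within each of the 3 libraries, the exception being Nrg4 and Agt. In the WT libraries Retn also lay clear of Rarres2, and the other neighbours overlapped.

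**Figure D1:**
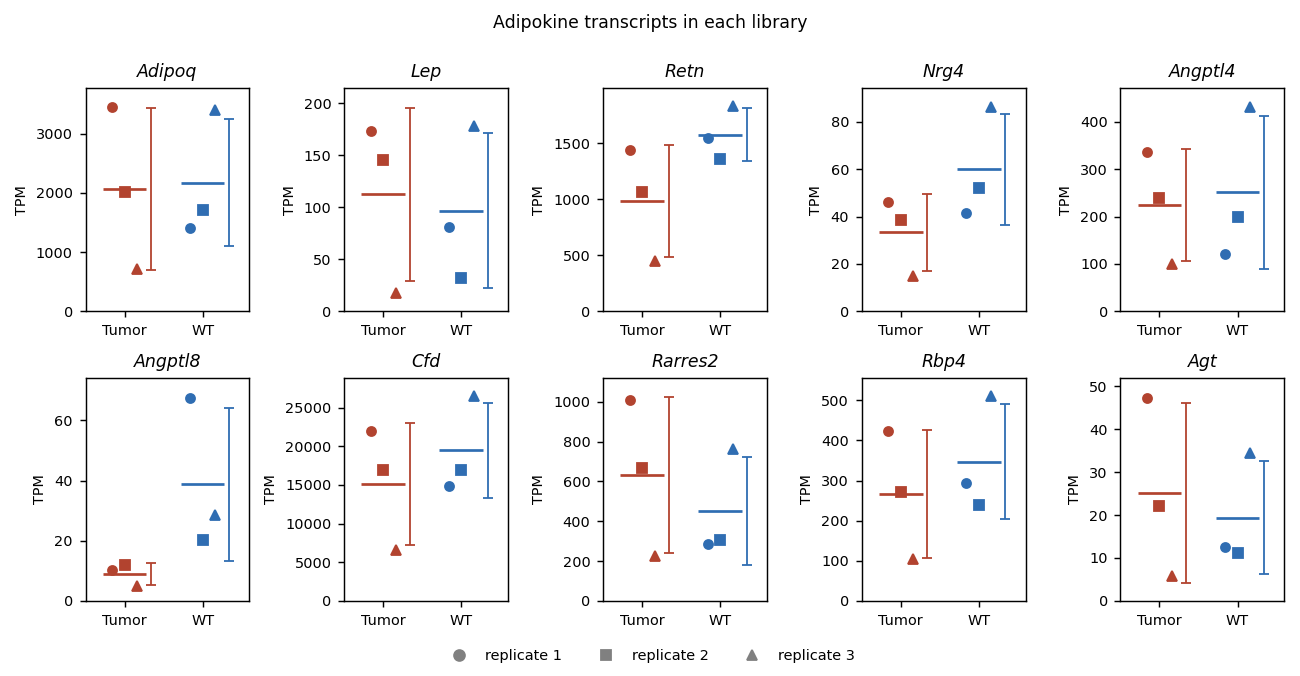
TPM of the 10 adipokines in each library, Tumor left and WT right in every panel, with a marker shape per replicate, a bar at the group mean and the SD (n = 3) beside it. The groups are apart only for Angptl8, at 4.98 to 11.99 TPM in the Tumor libraries and 20.2 to 67.5 TPM in the WT libraries.

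Each of the 10 members was lowest in Tumor replicate 3. Between the groups 1 of the 10 members, Angptl8, did not overlap, and it was lower in the Tumor libraries. Over all genes tested 3.24% were lower in the Tumor libraries without overlap and 11.8% were higher. None of the 10 passed limma's test adjusted over all genes, and 1 of them, Angptl8, had an unadjusted p below 0.05. The members' log2 differences were negative for 7 and positive for 3, with a median of -0.36, where the median over all genes tested was 0.23.

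Adipoq (chromosome 16, 23146536 to 23158028, GRCm38), which encodes the most abundant of the adipocyte's hormones in blood, stood at 3455, 2023 and 721 TPM in the Tumor libraries, against 1413, 1711 and 3403 TPM in the WT libraries. Tumor replicate 1 and WT replicate 3 were alike and high, Tumor replicate 3 was lowest, and the Tumor range enclosed the WT range. Tumor minus WT, the log2 difference was -0.24 (SE 0.66, 95% interval -1.84 to 1.37, limma adjusted p = 0.913). It was 0.39 without Tumor replicate 3.

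Lep (chromosome 6, 29060220 to 29073877), the satiety hormone whose RNA follows adipocyte fat content, had 173, 146 and 18.0 TPM in the Tumor libraries and 80.6, 31.6 and 178 TPM in the WT libraries. Its levels spanned 9.85-fold over the 6 libraries, and both groups held libraries at the upper and the lower end. A log2 difference of 0.01 (SE 1.02, 95% interval -2.49 to 2.51, limma adjusted p = 0.997) was found, and a change of several-fold in either direction lay within its interval. It was -0.19 with median-ratio library factors and 1.04 without Tumor replicate 3.

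The ratio of Lep to Adipoq does not depend on how a library is scaled. It was 0.0502, 0.0720 and 0.0250 in the Tumor libraries and 0.0570, 0.0185 and 0.0523 in the WT libraries. The lowest library of each group was thus Tumor replicate 3 and WT replicate 2, and the groups overlapped. The log2 ratio differed by 0.24 (exact two-sided permutation test p = 0.7, where 3 against 3 libraries cannot go below 0.1). It was -0.10 without Tumor replicate 2 and -0.28 without WT replicate 2.

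Retn (chromosome 8, 3655770 to 3660110), made by adipocytes in the mouse and linked there to insulin resistance, stood at 1441, 1068 and 451 TPM in the Tumor libraries, against 1542, 1355 and 1827 TPM in the WT libraries. The WT libraries lay close together, and of the Tumor libraries only replicate 1 reached into their range. Its log2 difference came to -0.82 (SE 0.46, 95% interval -1.95 to 0.31, limma adjusted p = 0.737). Without Tumor replicate 3, the library poorest in adipocyte markers, it was -0.33.

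Nrg4 (chromosome 9, 55220222 to 55326844), an EGF-like factor released most by brown and beige adipocytes, had 46.2, 38.6 and 15.1 TPM in the Tumor libraries and 41.7, 51.9 and 86.2 TPM in the WT libraries. Tumor replicate 1 lay just above WT replicate 1, so the groups overlapped in that pair alone. For Nrg4 the log2 difference was -0.90 (SE 0.48, 95% interval -2.08 to 0.27, limma adjusted p = 0.737). The 5 brown and beige markers, Ucp1, Cidea, Cox8b, Otop1 and Elovl3, summed to 252, 377 and 222 TPM in the Tumor libraries and to 816, 2163 and 837 TPM in the WT libraries, and their part in the level of Nrg4 was not tested. Exons of Nrg4 share 368 bases with those of Fbxo22 on the opposite strand, which stood at 36.8, 45.0 and 44.0 TPM in the Tumor libraries and 40.0, 26.9 and 34.7 TPM in the WT libraries. The titles of all 6 libraries carry the words forward strand, but no label says how reads were counted, so the level of Nrg4 is uncertain to that extent.

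Angptl8 (chromosome 9, 21835510 to 21837347), an insulin-induced protein of liver and fat that acts on lipoprotein lipase after feeding, showed the widest gap between the groups of the 10. It stood at 10.3, 11.99 and 4.98 TPM in the Tumor libraries, against 67.5, 20.2 and 28.4 TPM in the WT libraries. Every Tumor library lay below every WT library, and WT replicate 1 was far above the rest. The means were 9.09 ± 3.66 TPM in the Tumor libraries and 38.7 ± 25.3 TPM in the WT libraries (SD, n = 3), 4.26-fold lower in the Tumor libraries. The log2 difference was -1.87 (SE 0.52, 95% interval -3.13 to -0.60), with an unadjusted p of 0.0111 that did not pass when adjusted over all genes (limma adjusted p = 0.737). Left out in turn, the 6 libraries gave -2.23 to -1.38, the last without WT replicate 1. That library also held the most of 7 mammary and skin epithelial markers, whose sums were 2.22, 4.33 and 7.32 TPM in the Tumor libraries and 21.5, 3.36 and 0.884 TPM in the WT libraries, and their part in its Angptl8 was not tested. Of 6 liver markers 2 passed the filter on low values and Cyp3a11 was at 0 in every library. Their sum was 3.43 to 17.2 TPM in the Tumor libraries and 8.85 to 17.4 TPM in the WT libraries. The whole of Angptl8 lies inside the span of Dock6 on the opposite strand but shares 0 exonic bases with it, and Dock6 stood at 31.7, 24.4 and 22.0 TPM in the Tumor libraries and 19.6, 25.7 and 40.3 TPM in the WT libraries.

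Angptl4 (chromosome 17, 33773750 to 33781830), the fasting-induced lipase inhibitor, did not show that gap. It had 336, 240 and 100.2 TPM in the Tumor libraries and 122, 200 and 432 TPM in the WT libraries, with each group spread across the range of the other. Here the log2 difference was -0.13 (SE 0.62, 95% interval -1.63 to 1.38, limma adjusted p = 0.950), and 0.37 without Tumor replicate 3. The ratio of Angptl8 to Angptl4, looked at after the values were seen and given without a test, was 0.0307, 0.0499 and 0.0497 in the Tumor libraries and 0.554, 0.101 and 0.0658 in the WT libraries. All 3 Tumor libraries lay below all 3 WT libraries in this ratio.

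Cfd (chromosome 10, 79890853 to 79892655) was the most abundant member, at 21976, 16983 and 6551 TPM in the Tumor libraries and 14922, 16997 and 26496 TPM in the WT libraries. Tumor replicate 2 and WT replicate 2 were nearly equal, and the groups overlapped. Factor D differed by -0.49 on the log2 scale (SE 0.56, 95% interval -1.86 to 0.89, limma adjusted p = 0.807), and by 0.034 without Tumor replicate 3.

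Rarres2 (chromosome 6, 48569696 to 48572789), whose product attracts immune cells that carry the chemerin receptor and also acts on adipocytes, stood at 1008, 665 and 226 TPM in the Tumor libraries and 284, 306 and 764 TPM in the WT libraries. The Tumor range enclosed the WT range. Chemerin's log2 difference was 0.40 (SE 0.66, 95% interval -1.22 to 2.02, limma adjusted p = 0.854), and -0.063 without Tumor replicate 1. Its exons share 892 bases with those of Lrrc61 on the opposite strand, which was far lower at 15.5, 20.8 and 18.7 TPM in the Tumor libraries and 22.9, 11.2 and 14.8 TPM in the WT libraries.

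Rbp4 (chromosome 19, 38116629 to 38125281), the blood carrier of retinol, had 423, 272 and 106 TPM in the Tumor libraries and 293, 240.0 and 510 TPM in the WT libraries. Only Tumor replicate 3 lay below the WT range. Its log2 difference was -0.52 (SE 0.57, 95% interval -1.90 to 0.87, limma adjusted p = 0.800), and 0.042 without Tumor replicate 3. Agt (chromosome 8, 124556534 to 124569706), the precursor of angiotensin, stood at 47.3, 22.1 and 5.90 TPM in the Tumor libraries and 12.6, 11.2 and 34.5 TPM in the WT libraries. The Tumor libraries held both its highest and its lowest value. For Agt the log2 difference was 0.13 (SE 0.79, 95% interval -1.80 to 2.06, limma adjusted p = 0.961), and -0.51 without Tumor replicate 1.

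**Figure D2:**
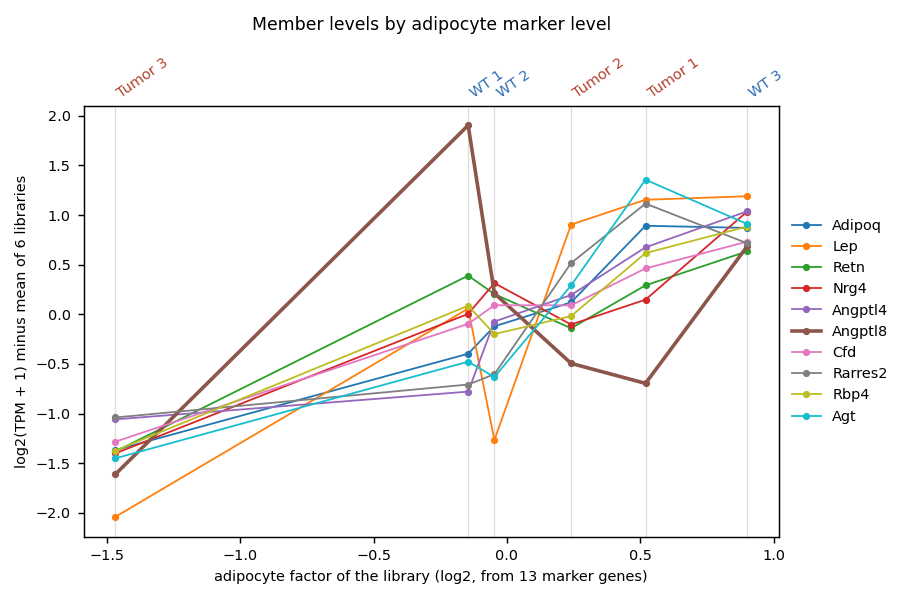
Level of each member, as log2(TPM + 1) minus its mean over the 6 libraries, against the library's adipocyte factor on a log2 scale, derived from 13 marker genes that are not members. All 10 members are lowest in Tumor replicate 3, at the left, 9 stand above their mean in both Tumor replicate 1 and WT replicate 3, and Angptl8 is below its mean in Tumor replicate 1 and peaks in WT replicate 1.

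Most members varied along with the adipocyte markers from library to library. Each library was therefore also divided by an adipocyte factor, which makes the mean log2 TPM of the 13 adipocyte markers equal in all libraries. The factors were 1.43, 1.18 and 0.361 for the Tumor libraries and 0.904, 0.968 and 1.87 for the WT libraries. On this scale the ratio of the highest to the lowest library was 1.28 for Cfd, against 4.04 as deposited. For Adipoq that ratio was 1.54, against 4.79 as deposited, and for Rbp4 1.41, against 4.82. Lep kept a ratio of 3.78 and Angptl8 one of 10.4, so these 2 members varied most beyond the adipocyte markers. The scaling moved the median log2 difference over all genes to 0.66, and that of the members to 0.11. The same 13 markers could themselves differ between the groups, which cannot be told apart from the amount of adipocyte RNA.

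**Figure D3:**
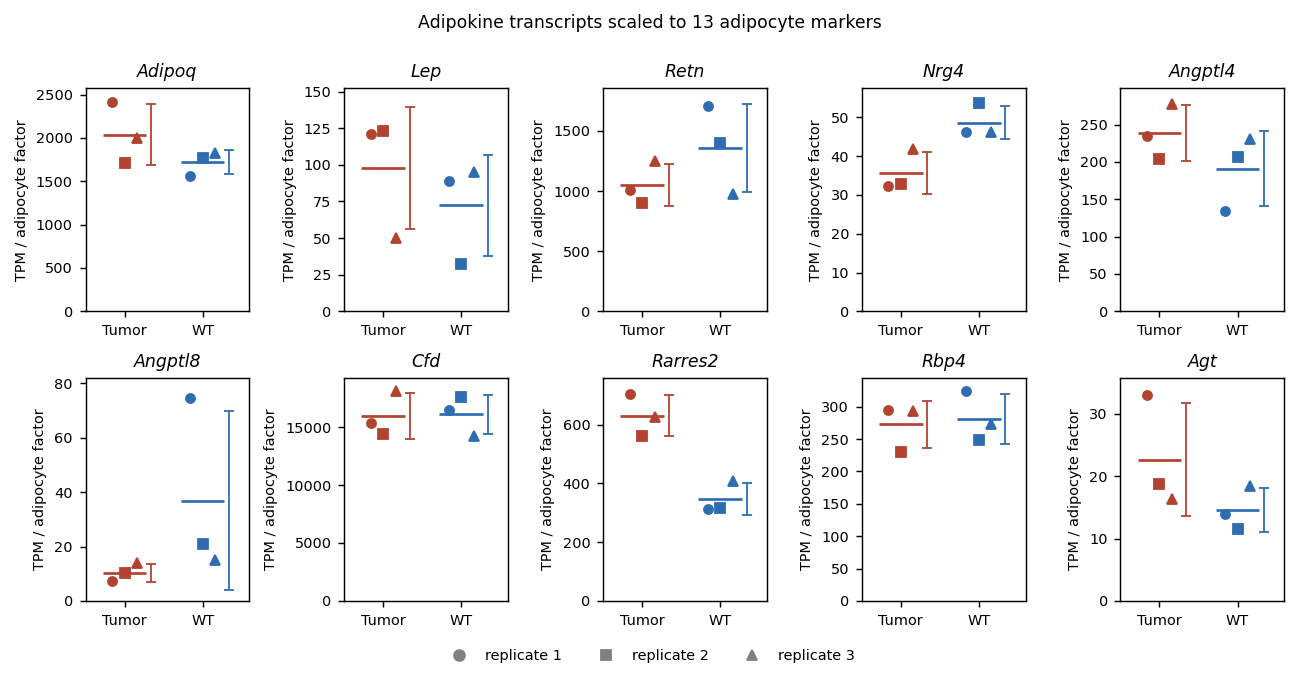
TPM of the 10 adipokines divided by each library's adipocyte factor, Tumor left and WT right, with replicate markers, group means and SD (n = 3). Angptl8 and Nrg4 lie lower and Rarres2 higher in all 3 Tumor libraries than in all 3 WT libraries, and the other members overlap.

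After this scaling 3 members did not overlap between the groups, and none passed limma's adjusted test, as none of all genes did (0.0%). Lower in the Tumor libraries without overlap were 2 of 10 members, Angptl8 and Nrg4, where 0.488% of all genes were. Higher without overlap was 1 of 10, Rarres2, where 6.84% of all genes were. Among the 13 adipocyte markers that set the factors, 3 were lower and 2 higher in the Tumor libraries without overlap. The mean log2 level of these markers was made equal in all libraries, so differences of both signs among them were built in. They are thus no independent comparison for the members. Splits without overlap on this scale also occurred outside the members, in the shares of all genes given above. Scaled Angptl8 was 7.18, 10.1 and 13.8 in the Tumor libraries and 74.6, 20.9 and 15.2 in the WT libraries, so its nearest libraries were almost level. Its log2 difference was -1.44 (SE 0.70, limma adjusted p = 0.682), and -0.77 without WT replicate 1. Scaled Nrg4 was 32.2, 32.7 and 41.8 in the Tumor libraries and 46.1, 53.6 and 46.2 in the WT libraries. Its nearest libraries, Tumor replicate 3 and WT replicate 1, were also almost level. The log2 difference of Nrg4 was smaller, at -0.45 (SE 0.51, limma adjusted p = 0.682). The scaled sums of the 5 brown and beige markers were 175, 319 and 616 in the Tumor libraries and 903, 2234 and 448 in the WT libraries, and overlapped. Taken singly, all 5 had a negative scaled log2 difference, with a median of -1.47, and 3 were lower in the Tumor libraries without overlap. As deposited, all 5 were lower without overlap, where 3.24% of all genes were. Their part in scaled Nrg4 was not tested. For Rarres2 the scaled levels were 703, 563 and 625 in the Tumor libraries and 314, 316 and 409 in the WT libraries. Its means were 630.3 ± 70.3 in the Tumor libraries and 346 ± 54.4 in the WT libraries (SD, n = 3), 1.82-fold higher in the Tumor libraries. On the log2 scale it differed by 0.87 (SE 0.52, limma adjusted p = 0.682), against the median of 0.66 over all genes. Rarres2 is also made by fibroblast-like cells, and 6 progenitor and fibroblast markers summed to 6783, 1802 and 843 TPM in the Tumor libraries and to 1286, 901 and 2911 TPM in the WT libraries. Divided by the adipocyte factors, these sums were 4731, 1525 and 2334 in the Tumor libraries and 1422, 931 and 1559 in the WT libraries, so that Tumor replicates 1 and 3 lay above every WT library and Tumor replicate 2 did not. All 6 of these markers had a positive scaled log2 difference, and 3 were higher in the Tumor libraries without overlap. Their part in the level of Rarres2 was not tested.

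The remaining members overlapped on the scaled values. Adipoq was at 2410, 1712 and 1994 in the Tumor libraries and 1563, 1768 and 1823 in the WT libraries, with a log2 difference of 0.24 (SE 0.55). Lep was at 121, 123 and 50.0 in the Tumor libraries and 89.1, 32.6 and 95.2 in the WT libraries, with a difference of 0.47 (SE 0.66). These hormones thus had a small positive difference with an error larger than it. Retn had a scaled log2 difference of -0.35, Angptl4 0.34 and Agt 0.56. Cfd and Rbp4 were nearest to 0, at -0.01 and -0.05, with means of 15945 and 273 in the Tumor libraries and 16084 and 282 in the WT libraries.

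**Figure D4:**
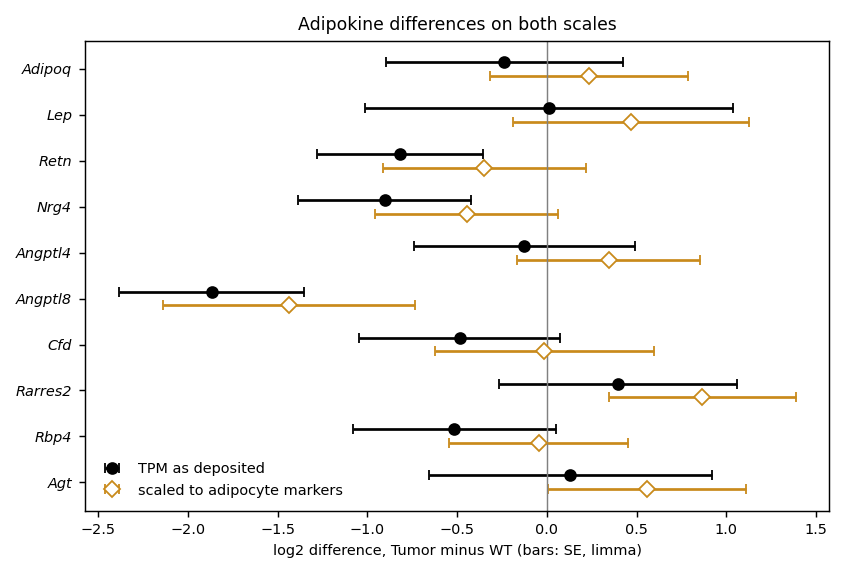
Log2 difference, Tumor minus WT, of each member with its SE from limma, on TPM as deposited (filled circles) and scaled to the adipocyte markers (open diamonds). Angptl8 lies farthest from 0 on both scales, at -1.87 and -1.44, and the scaling shifts every member upwards. That shift comes from the library factors and is not a trait of the members. The median over all genes tested likewise moves from 0.23 to 0.66.

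The ratio of each member to Adipoq needs no library factor. Nrg4 to Adipoq was 0.0134, 0.0191 and 0.0210 in the Tumor libraries and 0.0295, 0.0303 and 0.0253 in the WT libraries. Rarres2 to Adipoq was 0.292, 0.329 and 0.313 in the Tumor libraries and 0.201, 0.179 and 0.225 in the WT libraries. Of the 9 ratios these 2 and that of Angptl8 did not overlap between the groups, with Rarres2 the higher one in the Tumor libraries. Of all tested genes set against Adipoq in the same way, 0.785% were lower in the Tumor libraries without overlap, as Nrg4 and Angptl8 were, and 2.17% were higher, as Rarres2 was. Angptl8 to Adipoq was 0.00298, 0.00593 and 0.00691 in the Tumor libraries and 0.0478, 0.0118 and 0.00835 in the WT libraries. Retn to Adipoq was 0.417, 0.528 and 0.625 in the Tumor libraries and 1.09, 0.792 and 0.537 in the WT libraries, overlapping in Tumor replicate 3 and WT replicate 3. Cfd to Adipoq stayed within 6.36 and 9.09 in the Tumor libraries and 7.79 and 10.6 in the WT libraries. These ratios are a description and share Adipoq as their denominator, and the shares over all genes were added after the values were seen.

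**Figure D5:**
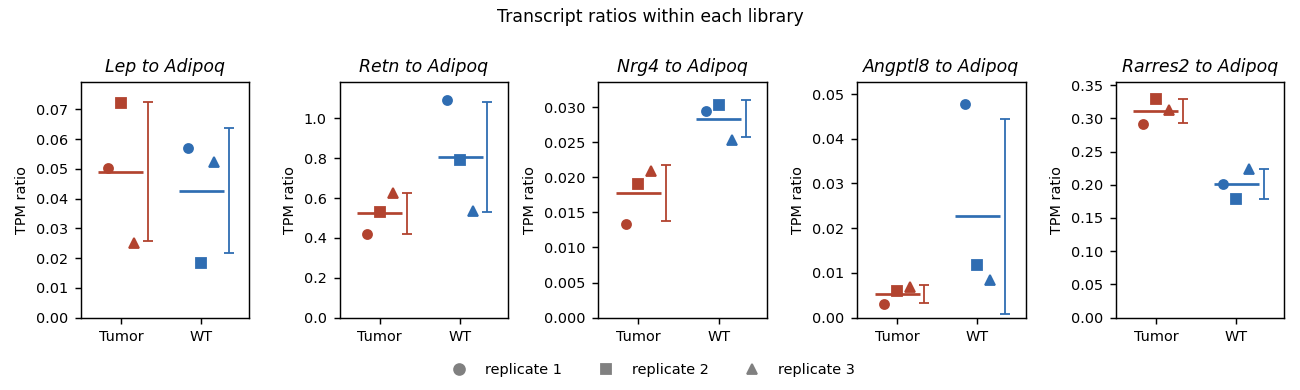
TPM of Lep, Retn, Nrg4, Angptl8 and Rarres2 divided by that of Adipoq in the same library, Tumor left and WT right, with replicate markers, group means and SD (n = 3). Nrg4 and Angptl8 lie lower and Rarres2 higher in the Tumor libraries without overlap, whereas Lep and Retn overlap.

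Genes around the members were examined in 8 lists, of which up to 3 genes, from those with the smallest p, are given for each. None of their tested genes passed limma's adjusted test, and the adjusted p of the genes named here ran from 0.737 to 0.948. Of 18 receptors 12 were tested, 4 with a negative and 8 with a positive log2 difference and a median of 0.25. Ccrl2, which binds chemerin without signalling, averaged 4.82 ± 0.507 TPM in the Tumor libraries and 3.15 ± 1.31 TPM in the WT libraries (SD, n = 3, as for all means below). Cap1, a proposed resistin receptor, averaged 175 ± 64.5 TPM in the Tumor libraries and 124 ± 41.7 TPM in the WT libraries. Erbb3, of the neuregulin receptor family, was at 1.72 ± 0.239 TPM in the Tumor libraries and 1.21 ± 0.449 TPM in the WT libraries. All 3 overlapped between the groups.

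Around lipoprotein lipase, 5 of 6 tested genes had a negative difference, with a median of -0.35. Sel1l, which helps the lipase mature, averaged 29.3 ± 4.83 TPM in the Tumor libraries and 22.8 ± 5.23 TPM in the WT libraries. Apoc2, the lipase's cofactor, was at 4.65 ± 2.46 TPM in the Tumor libraries and 6.61 ± 1.20 TPM in the WT libraries. Their groups overlapped. Downstream of angiotensinogen 6 of 8 enzymes and related proteins were tested, 3 with a difference of each sign. Atp6ap2, the prorenin receptor, stood at 48.4, 35.9 and 43.6 TPM in the Tumor libraries and 32.3, 30.7 and 32.3 TPM in the WT libraries, and Lnpep, an aminopeptidase, at 20.7, 21.1 and 19.7 TPM in the Tumor libraries and 17.9, 13.6 and 17.0 TPM in the WT libraries. Both were higher in the Tumor libraries without overlap, as 11.8% of all genes were. Mme, the peptidase neprilysin, averaged 14.5 ± 7.76 TPM in the Tumor libraries and 18.4 ± 11.2 TPM in the WT libraries.

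In the alternative complement pathway, in which factor D cleaves factor B bound to C3b, all 4 tested of 6 genes had a positive difference, with a median of 0.20, near that of all genes. Cfp, or properdin, stood at 146, 125 and 152 TPM in the Tumor libraries and 111, 118 and 105 TPM in the WT libraries. It was higher without overlap, as 11.8% of all genes were, and its groups overlapped after scaling to the adipocyte markers. Cfb averaged 295 ± 38.6 TPM in the Tumor libraries and 239 ± 40.7 TPM in the WT libraries, and C3 705 ± 71.1 TPM in the Tumor libraries and 682 ± 78.0 TPM in the WT libraries. In retinol handling 3 of 4 genes were tested, all with a positive difference. Rdh10, a retinol dehydrogenase, averaged 9.27 ± 2.91 TPM in the Tumor libraries and 7.10 ± 1.03 TPM in the WT libraries, and Aldh1a1, which makes retinoic acid, 55.0 ± 40.0 TPM in the Tumor libraries and 43.5 ± 25.5 TPM in the WT libraries.

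Of 7 tested genes for the folding and assembly of adiponectin 6 had a positive difference, with a median of 0.21. Ero1l, an oxidase of the endoplasmic reticulum, averaged 15.9 ± 2.74 TPM in the Tumor libraries and 13.2 ± 2.11 TPM in the WT libraries. Plod2, a lysyl hydroxylase, was at 5.88 ± 2.06 TPM in the Tumor libraries and 4.19 ± 1.93 TPM in the WT libraries, and Erp44, which retains adiponectin through thiols, at 53.0 ± 9.61 TPM in the Tumor libraries and 46.7 ± 5.62 TPM in the WT libraries. Among 15 tested of 19 other secreted factors 5 had a negative and 10 a positive difference, with a median of 0.25. C1qtnf12, an adiponectin relative, was lower without overlap, at 60.4, 43.8 and 27.2 TPM in the Tumor libraries and 62.1, 71.4 and 87.0 TPM in the WT libraries (log2 difference -0.79, SE 0.31, limma adjusted p = 0.737). Over all genes 3.24% were lower without overlap. After scaling to the adipocyte markers the groups of C1qtnf12 overlapped, with a log2 difference of -0.33. Apln, or apelin, averaged 2.87 ± 0.826 TPM in the Tumor libraries and 1.83 ± 0.502 TPM in the WT libraries, and Gdf15, a stress-induced cytokine, 3.62 ± 2.93 TPM in the Tumor libraries and 2.14 ± 1.80 TPM in the WT libraries. Of 12 relatives of the members 8 were tested, 4 with a difference of each sign. Nrg2 was higher without overlap, as 11.8% of all genes were. Its level was low, 1.54 ± 0.402 TPM in the Tumor libraries and 0.561 ± 0.0704 TPM in the WT libraries. Retnla, which is a macrophage as well as a fat transcript, stood at 1155, 497 and 105 TPM in the Tumor libraries and 675, 540 and 2046 TPM in the WT libraries, and Retnlg, a neutrophil transcript, was listed at 0, 1.25 and 2.43 TPM in the Tumor libraries and 6.27, 2.86 and 1.53 TPM in the WT libraries.

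The genes most like Adipoq and Lep over the 6 libraries were taken as those with the smallest root mean square distance between centred log2(TPM + 1) profiles, among 8816 tested genes with a mean of at least 10 TPM. Nearest to Adipoq was Cavin1, at a distance of 0.06, with 409, 264 and 91.5 TPM in the Tumor libraries and 182, 213 and 401 TPM in the WT libraries. Serpina3c, Il17rc, Amy1 and Bnip3 followed at 0.09, 0.09, 0.10 and 0.11. Lep had no neighbour as near. Among its nearest were Apcdd1 and Fcrls, both at 0.29, Amotl2 at 0.30 and Nid1 at 0.36. Among the members themselves Cfd and Rbp4 had the closest profiles, at 0.18, and Angptl8 and Rarres2 the most distant, at 1.42.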

How the data were processed

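Poly-A RNA of subcutaneous white adipose tissue, with an integrity number above 7 per the labels' protocols, was sequenced in 6 libraries. The authors deposited 1 table. Although its name speaks of raw counts, its values are not whole and sum to 1000000 per library, so the deposited values are TPM. Per the submitters' processing notes the build was GRCm38.p6; the aligner and quantifier were not given in the sources used here. Each title carries the words forward strand, without saying how reads were counted. Read depth is unknown, so no counting interval is given. Of 36144 names 26 are spreadsheet dates. Library columns were matched to samples by the description label, and groups were taken from the titles.

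log2(TPM + 1) of 14144 genes with at least 1 TPM in 3 libraries was fitted with limma 3.58.1 in R 4.3.3 (trend, robust moderation, group alone), with Benjamini-Hochberg adjustment over these genes and a threshold of 0.05. Differences understate changes of low genes. The Lep to Adipoq ratio had an exact permutation test (scipy 1.17.1). The procedure was also run on simulated data in which each gene varied independently. Those data lack the variation shared by many genes within a library seen here, so that run cannot vouch for the test on these libraries. Adipocyte factors divide each library by the geometric mean of 13 markers. Coordinates are from GENCODE M21. Members, lists and rules were chosen with earlier results of these data known: all 10 members, and per list the 3 genes with the smallest p, of which some are not reported here. Alternatives were other pseudocounts, filters, library factors, limma settings, a covariate, a replicate block and fewer libraries. Figures were drawn with matplotlib 3.10.9.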

Additional observations from a re-analysis of the deposited data

How the results depend on the processing

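Over 180 refits of the 10 members (18 alternatives each), 159 kept the direction, 21 reversed it and 0 passed the threshold, with a smallest limma adjusted p of 0.345, for Angptl8. The other filters, the other limma settings and the replicate block leave a member's log2 difference as it was. Their refits could not reverse and are no evidence of a stable direction. Angptl8, Nrg4 and Retn were negative in each of these refits. Angptl8 ran from -2.11 to -1.44 apart from the fits that left out 1 library. With adipocyte factors Adipoq was 0.24 and Angptl4 0.34. With the B and plasma cell covariate Angptl4 was 0.069. With median-ratio factors Lep was -0.19 and Agt -0.060, and with upper-quartile factors Lep was -0.18 and Agt -0.053. In the 4 lymphoid-rich libraries, without WT replicate 3 and Tumor replicate 1, Agt was -0.026. The cause was not tested.

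Leaving out each library in turn gave ranges of -0.74 to 0.39 for Adipoq, -0.62 to 1.04 for Lep, -1.17 to -0.33 for Retn, -0.84 to 0.034 for Cfd, -0.95 to 0.042 for Rbp4, -1.20 to -0.43 for Nrg4, -0.55 to 0.37 for Angptl4, -2.23 to -1.38 for Angptl8, -0.51 to 0.89 for Agt and -0.063 to 1.01 for Rarres2. The upper ends of Cfd and Rbp4 came without Tumor replicate 3. The log2 ratio of Lep to Adipoq ran from -0.28 to 0.66. On the adipocyte scale, whose refits were chosen after seeing the data, the ranges were 0.11 to 0.35 for Adipoq, -0.021 to 0.89 for Lep, -0.11 to 0.057 for Cfd, -0.13 to 0.071 for Rbp4, -0.57 to -0.38 for Nrg4, -1.88 to -0.77 for Angptl8 and 0.78 to 0.99 for Rarres2.

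The count of genes past the threshold was 0 in each fit but that with the B and plasma cell covariate, where it was 1. That gene, Gm11594, is named after its values were seen and was listed at 0 in each Tumor library and at 8.44, 7.32 and 5.69 TPM in the WT libraries. Same-numbered libraries did not deviate together (correlations -0.76, 0.20 and -0.84 over genes), while Tumor replicate 1 and WT replicate 3 did (0.85). With 3 libraries a group this cannot tell whether the numbers pair them. With the replicate number as a block the differences cannot change, since each number holds 1 library of each group. They were -1.87 for Angptl8 and 0.24 for the Lep to Adipoq ratio (exact sign-flip permutation p = 1.0, with 0.25 the smallest possible). In the limma fit with this block 0 genes passed, and 183 had an unadjusted p below 0.05, against 771 without it. With 3 libraries a group and unknown depth, the 95% intervals of Adipoq, Lep, Angptl4, Agt and Rarres2 include a 2-fold change in either direction.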
